A study of Mus musculus with 6 samples.

Results

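The microRNA (miRNA) composition of the wild-type mouse left ventricle under cyclosporin was described from the 3 libraries labelled WT among the 6 libraries of the series. All 698 mature miRNAs listed in the table were taken, whatever their level, and the libraries were taken by their genotype label. The mice were WT, the tissue was the left ventricle of the heart, and each mouse was on cyclosporin, which blocks calcineurin, a calcium-activated phosphatase, for 3 weeks. The other 3 libraries of the series came from mice with the R719W mutation in Myh6, the gene of the α-myosin heavy chain, on the same treatment. No comparison with them was made, and mice without cyclosporin were not analysed here. Each library is labelled a biological replicate, and the labels give no age, sex, strain or dose, so the values describe WT ventricle under cyclosporin and not untreated ventricle.

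A miRNA is cut from a hairpin precursor, and either arm of the hairpin can give the mature strand that is loaded into an Argonaute protein. Bases near its 5′ end, the seed, pair with target messenger RNAs, so miRNAs with one seed share many predicted targets and are grouped as a family. In the heart, miR-1, miR-133a, miR-208a and miR-499 are known as miRNAs of muscle cells. miR-208a, miR-208b and miR-499 lie in introns of the myosin heavy chain genes Myh6, Myh7 and Myh7b, and so are called myomiRs.

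The sequences below are those of the families and arm pairs on which the results turn, as the deposited table gives them, with T for U and the seed (bases 2 to 8) in capitals. Of the 698 listed sequences, 538 were identical to a mature sequence in RefSeq (GRCm38.p6). The first set holds members of abundant families. miR-206 carries the same seed as miR-1, the most abundant miRNA. miR-208a and miR-208b share a seed, and miR-499 joins them when the seed is taken as bases 2 to 7. The let-7, miR-29 and miR-23 members shown have one seed per family and differ in few bases outside it.
miR-206: tGGAATGTaaggaagtgtgtgg
miR-208a: aTAAGACGagcaaaaagcttgt
miR-208b: aTAAGACGaacaaaaggtttgt
miR-499: tTAAGACTtgcagtgatgttt
let-7g: tGAGGTAGtagtttgtacagtt
let-7i: tGAGGTAGtagtttgtgctgtt
let-7f: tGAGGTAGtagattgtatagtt
miR-29a: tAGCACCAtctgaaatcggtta
miR-29b: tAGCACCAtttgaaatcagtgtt
miR-29c: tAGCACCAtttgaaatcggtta
miR-23a: aTCACATTgccagggatttcc
miR-23b: aTCACATTgccagggattacc

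The second set holds both arms of hairpins whose arms were close in level, or whose asterisk arm was the higher one. In the naming used by the table, an asterisk marks the arm taken to be the minor one when the miRNA was named. The 2 arms of a hairpin carry different seeds, so a reader can see which seed each arm contributes.
miR-24: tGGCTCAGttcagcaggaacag
miR-24-1*: gTGCCTACtgagctgatatcagt
miR-24-2*: gTGCCTACtgagctgaaacagt
miR-126-5p: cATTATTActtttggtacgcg
miR-126-3p: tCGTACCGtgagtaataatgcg
miR-425: aATGACACgatcactcccgttga
miR-425*: aTCGGGAAtgtcgtgtccgcc
miR-140: cAGTGGTTttaccctatggtag
miR-140*: tACCACAGggtagaaccacgg
miR-30a: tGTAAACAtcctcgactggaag
miR-30a*: cTTTCAGTcggatgtttgcagc

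Reads on listed miRNAs came to 817935, 765425 and 1192020 in WT replicates 1, 2 and 3. Levels are given as CPM, which scales the total of each library to the same sum, so a count of 0 allowed a level of up to 3.67, 3.92 and 2.52 CPM (3 reads). Such floors cover counting error only, since reads were not counted by molecular identifiers. Of the 698 entries, 337 had a read in at least 1 library, 253 in all 3 and 361 in none. At least 10 reads were found for 164, 175 and 177 entries (172 ± 7.0, SD, n = 3).

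The libraries ranked the miRNAs alike and differed in level beyond counting noise. Spearman correlations across entries were 0.982 between replicates 1 and 2, 0.988 between 1 and 3, and 0.982 between 2 and 3, and entries are not independent replicates. Chi-square per degree of freedom was 68.6, 32.8 and 129.9 for the same pairs, so no pair of libraries agreed within sampling noise. Of the 93 entries with a mean of at least 100 CPM, 64 were highest in replicate 2 and 57 were lowest in replicate 3. In the same libraries the share of miR-1 was lowest in replicate 2 and highest in replicate 3. Because CPM values of a library sum to a fixed total, a lower share of miR-1 raises the summed CPM of the other entries. Of the 93 entries, 15 were lowest in replicate 2, miR-1 among them. The part of the fixed total in the differences between libraries was not tested.

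A single miRNA, miR-1, held about as many reads as all others together. miR-1, known to restrain proliferation and guide differentiation of muscle cells, was at 513485, 472716 and 550894 CPM in replicates 1, 2 and 3. Its share of reads was 51.2% ± 3.91 (SD, n = 3), above 50% in replicates 1 and 3 and below it in replicate 2. miR-208a ranked second in each library, at 88902, 73917 and 88837 CPM (83885 ± 8633), and miR-378 had rank 3 in each, at 39481, 45784 and 38785 CPM (41350 ± 3856). miR-1 and miR-208a were both lowest in replicate 2, and miR-378 was highest there. The ratio of miR-1 to miR-208a was 5.78, 6.40 and 6.20, highest in replicate 2.

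Below the first 3, levels fell gradually, and the order differed between libraries. miR-125b-5p averaged 27104 ± 3595 CPM, and miR-143, a miRNA of vascular smooth muscle, 27035 ± 4443 CPM. These neighbours in the order did not differ beyond their spread, and miR-143 had rank 4 in replicates 1 and 3 and rank 8 in replicate 2. let-7g (23142 ± 7149 CPM), miR-26a (23013 ± 2461) and let-7i (22297 ± 7065) lay within one another's spread. let-7f (17308 ± 2710) and miR-29a (15702 ± 2194) closed the first 10, and all 3 libraries shared these 10 members. The first 10 held 79.4%, 76.7% and 81.9% of reads (79.3% ± 2.60), and 90% of reads lay in 19, 21 and 18 entries.

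**Figure D1:**
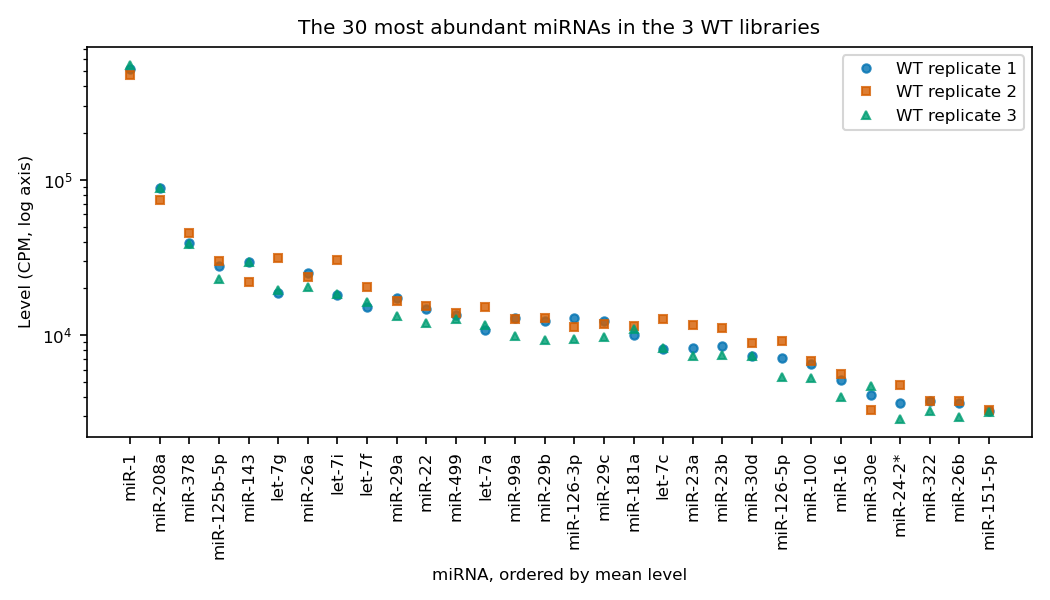
Level in CPM (log axis) of the 30 miRNAs with the highest mean, one point for each WT library. miR-1 lies at 472716 to 550894 CPM and miR-208a at 73917 to 88902 CPM, and let-7g and let-7i are higher in WT replicate 2 than in the other libraries.

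The effective number of miRNAs, the number of equally abundant miRNAs with the same Shannon diversity, was 10.2, 12.3 and 8.80 (10.4 ± 1.74). With miR-1 left out of the total it was 28.7, 31.3 and 27.4 (29.1 ± 1.98). Replicate 2 had the highest and replicate 3 the lowest value both with and without miR-1.

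Grouped by seed, 268 of 564 listed families had reads, and 207 of these 268 had a single listed member. The 10 families with the most reads held 88.4% ± 1.19 of all reads, and 90% lay in 12, 12 and 11 families. The miR-1 family was made up of miR-1 alone, since miR-206, a miRNA of skeletal muscle with the same seed, had 0 reads in all 3 libraries. The effective number of families was 7.95, 8.85 and 6.93 (7.91 ± 0.962).

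The let-7 family and the miR-208 family took the next places and changed order between libraries. let-7 miRNAs, which are known to restrain proliferation and growth genes, held 7.52%, 11.6% and 7.78% of reads (8.97% ± 2.29). The miR-208 family held 8.94%, 7.43% and 8.92% (8.43% ± 0.865). let-7 was above the miR-208 family in replicate 2 and below it in replicates 1 and 3.

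The let-7 family was spread over many members, unlike the miR-208 family. let-7g held 25.6% ± 1.26 of the family's reads, let-7i 24.6% ± 1.43, let-7f 19.6% ± 1.79, let-7a 14.1% ± 0.875 and let-7c 10.8% ± 0.139. let-7g was at 18585, 31381 and 19460 CPM, and let-7i at 18145, 30455 and 18292 CPM, both highest in replicate 2. let-7f was at 15264, 20382 and 16277 CPM, also highest there, and its share of the family was lowest in that library (20.3%, 17.6% and 20.9%). let-7f and let-7a differ at 1 of 22 bases, and let-7g and let-7i at 2, and the labels and headers do not say how reads close to more than one listed sequence were divided.

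The miR-208 family consisted almost wholly of miR-208a, which held 99.5% ± 0.0817 of it. The hairpin of miR-208a matched chromosome 14, 54949060 to 54949142 on the minus strand (GRCm38, GENCODE M21), in an intron of Myh6. miR-208b, from chromosome 14, 54975700 to 54975776 within Myh7 (intronic), which encodes the β-myosin heavy chain of the fetal mouse ventricle, had 382, 279 and 391 reads. That is 467, 365 and 328 CPM, highest in replicate 1, against 88902, 73917 and 88837 CPM for miR-208a. The ratio of miR-208a to miR-208b was 190.4, 203 and 271, and the sequences differ at 3 of 22 bases.

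miR-499, from an intron of Myh7b on chromosome 2 (155622880 to 155622958, plus strand), was at 13566, 13826 and 12800 CPM (13397 ± 533). With bases 2 to 7 as the seed, the family formed when miR-499 joins the miR-208 members held 9.77% of reads. Reads matching the 3 myosin introns differed in share. Those of the Myh6 intron made up 8.39% ± 0.863 of the total, of Myh7b 1.34% ± 0.0533 and of Myh7 0.0387% ± 0.00721. The part of ligation and amplification in these shares was not tested.

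Other large families had 1 leading member or several of like level. miR-378, a miRNA tied to mitochondrial metabolism and encoded in an intron of Ppargc1b, was alone in its family with 4.13% ± 0.386 of reads. The miR-29 family, known to target collagens and other matrix genes, held 3.85% ± 0.542 in near-even parts: miR-29a 40.8% ± 0.519, miR-29b 29.9% ± 1.26 and miR-29c 29.2% ± 0.829 of the family. miR-29a and miR-29c differ at 1 of 22 bases.

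The miR-125 family (2.76% ± 0.368 of reads) was 98.3% miR-125b-5p, with 1.65% from miR-125a-5p. miR-143 formed its family alone (2.70% ± 0.444). The miR-26 family (2.65% ± 0.284) was 86.9% ± 0.656 miR-26a, and the remaining 13.1% was miR-26b.

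miR-23a and miR-23b, whose sequences differ at 1 of 21 bases, split their family (1.81% ± 0.414 of reads) into 49.9% and 50.1% (± 0.872). The ratio of miR-23a to miR-23b was 0.983, 1.04 and 0.973, and both were highest in replicate 2, at 11592 and 11165 CPM. The miR-99 and miR-100 family (1.81% ± 0.250) was 65.2% ± 0.696 miR-99a and 34.4% ± 0.712 miR-100. The miR-30 family, known in the heart for targeting Ccn2, held 1.52%, 1.54% and 1.58% at ranks 11, 11 and 9, with the smallest SD relative to its mean of the first 11 families.

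**Figure D2:**
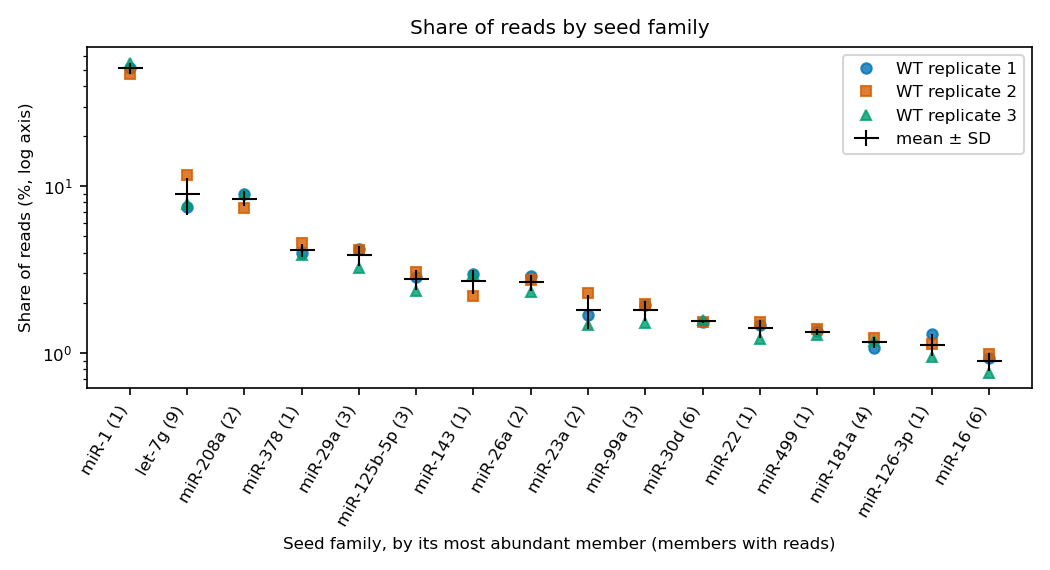
Share of reads (percent, log axis) of the 16 seed families with the most reads, one point per WT library, with the mean and SD as bars. Each family is named by its most abundant member, with its number of members with reads in parentheses; the let-7 family holds 11.6% in replicate 2 against 7.52% and 7.78% in the others.

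One arm predominated in nearly all of the hairpin pairs tested. Depth was not the only limit, since 347 entries had no listed partner and formed no pair. miR-1, miR-208a, miR-143 and miR-26a were among them, so the arm results do not cover these abundant miRNAs. The name pairs, an entry and its asterisk partner or a 5p and a 3p entry, numbered 170, and 82 of them had at least 30 reads on both arms together and were tested. With edgeR's quasi-likelihood test, library as a block and Benjamini-Hochberg adjustment, 81 of 82 pairs (98.8%) differed between arms at an adjusted p below 0.05. Of the 126 pairs with at least 1 read, 89 (70.6%) were called. Among the 82, the arm without an asterisk, or the 5p arm, was higher in 75 and the other arm in 6, each in all 3 libraries. The higher arm held a median of 99.4% of the pair's reads, at least 90% in 69 pairs and under 80% in 10. In 26 pairs an arm had 0 reads. Asterisk entries together held 0.705%, 0.879% and 0.593% of reads, most in replicate 2.

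The most abundant pairs were almost wholly one arm. miR-378 had 32293, 35044 and 46232 reads, and miR-378* had 214, 164 and 302. The log2 ratio was 7.40 (SE 0.24, adjusted p = 1.3e-70 by edgeR's quasi-likelihood test). For let-7g the libraries together held 62418 reads against 3 for let-7g*, and for let-7i 59956 against 9.

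let-7f* and miR-29b* had 0 reads. Against a floor of 3 reads over the group, let-7f was at least 16012-fold higher than let-7f*, and miR-29b at least 10682-fold higher than miR-29b*. miR-125b-5p held 99.8% of its pair, miR-22 99.8%, miR-29a 99.9% and miR-29c 99.9%. The copies of let-7f and miR-29b lie at several loci, and their reads cannot be divided among these. let-7f* and miR-29b* each match a single locus, so the partner arms of the other copies are not in the pair. These folds therefore compare listed entries and are not bounds for the arms of a single hairpin.

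Of the abundant pairs, miR-24 went against its name. This miRNA is encoded in both miR-23/27/24 clusters. miR-24 had 915, 1110 and 960 reads, and miR-24-1* and miR-24-2* together had 3187, 3999 and 3748. The asterisk arms held 78.5% ± 0.982 of the pair and were higher in each library, a log2 ratio of −1.87 (SE 0.17, adjusted p = 1.36e-20 by edgeR's quasi-likelihood test).

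Most of these reads were miR-24-2*, at 3662, 4810 and 2890 CPM, against 235, 414 and 254 CPM for miR-24-1*. The hairpin of miR-24-2* matched chromosome 8, 84208815 to 84208921 on the plus strand (GRCm38). No protein-coding or noncoding gene of the types searched contained it on that strand. The seed of the asterisk arms, TGCCTAC, accordingly held 0.409% ± 0.105 of reads and had rank 18 among families.

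miR-425 was the other such asterisk pair. miR-425 had 1, 3 and 1 reads, and miR-425* had 139, 119 and 166, a log2 ratio of −6.30 (SE 0.39, adjusted p = 2.32e-35 by edgeR's quasi-likelihood test). Among the 18 pairs named by arm, the 3p arm was higher in miR-126, miR-142, miR-342 and miR-574. miR-142-3p, a miRNA of blood cells, held 98.8% of its pair, miR-574-3p 91.4%, and miR-342-5p had 0 reads against 74 for miR-342-3p.

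miR-126, an endothelial miRNA in the gene Egfl7 (chromosome 2, 26591357 to 26591429, plus strand), was the most abundant pair whose arms differed by less than 4-fold. miR-126-5p had 5833, 7019 and 6459 reads, and miR-126-3p had 10576, 8610 and 11334. The 5p arm held 35.5%, 44.9% and 36.3% of the pair (38.9% ± 5.20), so the 3p arm was higher in each library, least so in replicate 2. The log2 ratio of 5p to 3p was −0.66 (SE 0.17, adjusted p = 2.27e-04 by edgeR's quasi-likelihood test). Without replicate 1 it was −0.55 and was not called (adjusted p = 0.125), and DESeq2 did not call it (adjusted p = 0.0702).

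After miR-126 and miR-24, the pairs with less than a 4-fold difference were, by reads, miR-30a, miR-140, miR-30c, miR-99b, miR-339, miR-671, miR-503 and miR-423. miR-30a held 78.5%, 72.1% and 81.6% of its pair (77.4% ± 4.87), with 2436, 2030 and 3504 reads against 667, 787 and 789 for miR-30a*. miR-140 had 300, 389 and 358 reads against 218, 229 and 231 for miR-140*, and held 60.5% ± 2.52. miR-140, in the gene Wwp2, is known for its role in cartilage.

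The miR-30c pair stood at 61.6% ± 3.28, miR-99b at 74.1% ± 1.46 and miR-339-5p at 70.9% ± 2.85. DESeq2 did not call miR-140 (adjusted p = 0.0992) or miR-30c (adjusted p = 0.0791). miR-671 had 10, 12 and 20 reads against 2, 11 and 7. Its call (adjusted p = 0.0244 by edgeR's quasi-likelihood test) was lost without replicate 1 (0.227), without replicate 3 (0.296), without the library block (0.0639) and with DESeq2 (0.148). The pair that was not called, miR-503, had 8, 9 and 8 reads against 1, 5 and 11. miR-423-5p, named here to complete the list, had 7, 7 and 13 reads against 5, 4 and 2 for miR-423-3p, and was called (adjusted p = 0.0343 by edgeR's quasi-likelihood test). Whether miR-423 kept its call with DESeq2 or with a library left out was not examined.

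The share of the lower arm moved with the library in several pairs. It was highest in replicate 2 for 11 of the 22 pairs with at least 30 reads on each arm, in replicate 1 for 7 and in replicate 3 for 4. For miR-30e* it was 18.7%, 24.1% and 15.7% of the pair, and for let-7d* 6.76%, 7.87% and 6.56%. When pairs were formed by hairpin rather than by name, 82 of 83 were called, with the 5p arm higher in 58 and the 3p arm in 24.

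**Figure D3:**
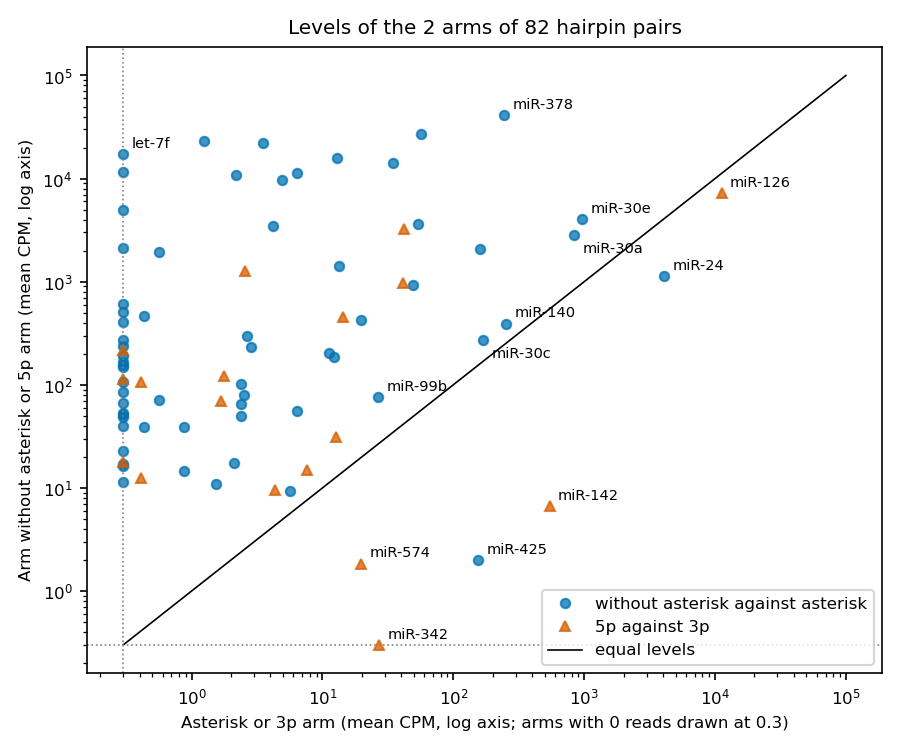
Mean level over 3 WT libraries (CPM, log axes) of the arm without asterisk or 5p arm against its asterisk or 3p partner for 82 pairs, with the line of equal levels and arms with 0 reads drawn at 0.3. The 6 pairs below the line include miR-24, miR-126 and miR-425, and let-7f is among the pairs whose partner had 0 reads.

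miRNAs known from particular cell types ranged from 610266 CPM for the muscle list to 0. In bulk tissue, fewer cells of a type and less RNA per cell cannot be told apart, and ligation and amplification also set the level of one miRNA relative to another. The 6 muscle entries summed to 616679, 561045 and 653074 CPM (610266 ± 46348), or 61.0% ± 4.63 of reads, lowest in replicate 2 and highest in replicate 3. miR-1 made up 84.0% of this sum, miR-208a 13.7% and miR-499 2.20%.

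miR-133a, which is transcribed together with miR-1 and regulates muscle proliferation and growth, was low. It was at 258, 219 and 215 CPM (231 ± 23.7), rank 71, and miR-133b had 1, 1 and 0 reads. The ratio of miR-1 to miR-133a was 1991, 2154 and 2565. The ratio was lowest in replicate 1 and highest in replicate 3, and the part of ligation and amplification in that ratio was not tested.

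Vascular lists came next. miR-143 and miR-145, of smooth muscle and pericytes, summed to 30018, 22414 and 30057 CPM (27497 ± 4402), lowest in replicate 2, and miR-143 was 98.3% of it. miR-145 was at 439, 508 and 436 CPM, highest in replicate 2, so that the ratio of miR-143 to miR-145 was 67.4, 43.1 and 67.9. The arms of miR-126, of endothelium, summed to 20062, 20419 and 14927 CPM (18469 ± 3073), lowest in replicate 3.

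The lists of blood cell miRNAs had lower sums than the vascular lists. The erythroid list summed to 2690, 3537 and 1633 CPM (2620 ± 954), of which miR-486, which muscle also expresses, was 98.1%. miR-451 had 26, 16 and 20 reads and miR-144 had 25, 23 and 19, or 31.8, 20.9 and 16.8 CPM for miR-451 and 30.6, 30.05 and 15.9 CPM for miR-144. These entries, the most typical of red blood cells, were highest in replicate 1, while miR-486 was highest in replicate 2. The leukocyte list summed to 874, 1079 and 722 CPM (892 ± 179): 61.1% was miR-142-3p and 18.7% miR-150, a lymphocyte miRNA, while the myeloid miR-223 was at 73.4, 78.4 and 68.8 CPM. miR-155 was at 56.2, 99.3 and 62.9 CPM, miR-342-3p at 24.5, 32.7 and 24.3 CPM, and miR-142-5p had 6, 7 and 4 reads. The sums of both lists were highest in replicate 2 and lowest in replicate 3.

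The fibroblast list, miR-214 and 3 miR-199 entries, summed to 203, 209 and 159 CPM (190 ± 27.1), lowest in replicate 3. miR-214 was at 116, 83.6 and 57.9 CPM, lowest in replicate 3, and miR-199a-5p had 12, 13 and 11 reads. The other members were lowest in replicate 1: the joint entry of miR-199b and miR-199a-3p, 36.9% of the list, at 52.6, 87.5 and 70.5 CPM, and miR-199b* at 19.6, 20.9 and 21.8 CPM. miR-21, raised in many injured tissues, was at 303, 327 and 253 CPM (294 ± 37.4).

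Most entries in the lists of other tissues were at or near 0, with miR-203, miR-128 and miR-9 as exceptions. miR-206 of skeletal muscle and miR-122 of liver had 0 reads, and so did miR-124 of neurons and miR-205 of epithelium. miR-375 of pancreatic islets had 2, 3 and 6 reads, and the 15 embryonic stem cell entries had 2, 1 and 3 in all. The 5 entries of the miR-200 and miR-141 group had 0 to 4 reads per library. miR-203, an epidermal miRNA, stood apart from these at 385, 494 and 329 CPM and made up 98.2% of the epithelium list. The epithelium list summed to 410 ± 88.0 CPM, above the fibroblast list in each library. Of the neuron list (51.3 ± 5.24 CPM), miR-128 was 79.0% and miR-9 21.0%.

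**Figure D4:**
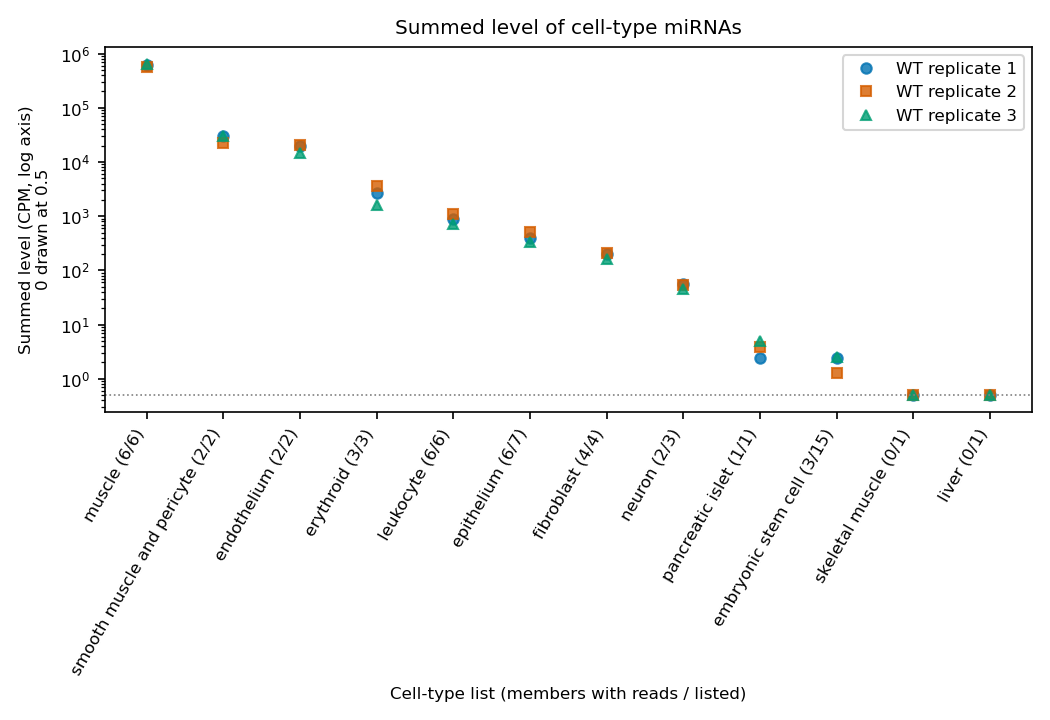
Summed level (CPM, log axis) of 12 lists of cell-type miRNAs, one point per WT library, with 0 drawn at 0.5 and the members with reads out of those listed in parentheses. The muscle list lies at 561045 to 653074 CPM, the fibroblast list at 159 to 209 CPM, and the skeletal muscle and liver lists at 0.

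Hairpins of one genomic cluster are often transcribed together. Clusters were defined as hairpins on one strand with gaps of at most 10 kb in GENCODE M21. Of 70 clusters with at least 2 listed hairpins, 19 had 30 or more reads and at least 2 hairpins whose sequences occur at no other locus. Pielou evenness is 1 when all members are equal and 0 when one holds all reads, and its median over the 19 clusters was 0.493, 0.522 and 0.480 (0.498 ± 0.0217). The median fold between the highest and lowest member was 10, 11.6 and 12, with a member at 0 reads entered as 3. In 5 of the 19 clusters at least 1 hairpin was left out for a copy elsewhere, so their values cover the remaining hairpins. In 17 of 19 clusters the same hairpin was highest in all 3 libraries.

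Among the hairpins counted, one held nearly all reads in the least even of the 13 clusters with at least 300 reads. The cluster of miR-322, miR-503, miR-542, miR-351 and miR-450b on chromosome X (53047997 to 53054349) had an evenness of 0.0937 ± 0.0129, and miR-322 held 97.3% ± 0.451 of its reads. The miR-143 and miR-145 cluster had an evenness of 0.125 ± 0.0270. For miR-23a and miR-27a, in a cluster on chromosome 8 (84208518 to 84208921) that also holds the hairpin of miR-24-2*, evenness was 0.152 ± 0.0358, and miR-23a exceeded the sum of both miR-27a arms by 46.0-fold, 61.2-fold and 33.3-fold.

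For miR-23b and miR-27b, in the paralogous cluster on chromosome 13 (63300484 to 63301275) with the hairpin of miR-24-1*, it was 0.583 ± 0.0594. This order depended on leaving out the miR-24 hairpins, whose arm without asterisk occurs in both clusters. With miR-24-1* and miR-24-2*, which match 1 locus each, counted too, evenness was 0.616 ± 0.0128 on chromosome 8 and 0.472 ± 0.0319 on chromosome 13. miR-23a then held 69.5% ± 0.914, miR-24-2* 29.0% ± 1.16 and miR-27a 1.58% ± 0.488 of the chromosome 8 cluster, and miR-23b 83.6% ± 2.04, miR-27b 13.7% ± 2.22 and miR-24-1* 2.75% ± 0.422 of the other. This count was chosen after the data were seen. It still left out miR-24 itself, whose reads (1125 ± 322 CPM) cannot be divided between the clusters and exceeded those of miR-24-1* (301 ± 98.4 CPM). The shares are therefore of the counted reads only. Whether the order of the clusters holds with the miR-24 reads was not tested. miR-27b, known to regulate lipid metabolism, was at 1379, 1471 and 1441 CPM, and miR-27a at 172, 171 and 209 CPM, so their ratio was 8, 8.60 and 6.90. The miR-23 members of the same clusters were equal within 4 percent in each library. The miR-27 sequences, like those of miR-23, differ at 1 of 21 bases.

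The most even of these clusters was that of miR-99b, let-7e and miR-125a on chromosome 17 (17830188 to 17830879), at 0.853 ± 0.0222. Its members were at 103 ± 25.5, 239 ± 45.6 and 472 ± 109 CPM with both arms summed. The cluster of miR-497 and miR-195 on chromosome 11 stood at 0.704 ± 0.0187, with miR-195 holding 80.8% ± 0.903. The cluster of miR-25, miR-93 and miR-106b on chromosome 5 stood at 0.698 ± 0.0226, with miR-93 holding 72.2% ± 1.11.

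The remaining clusters among the 10 with the most reads lay between these. miR-30d held 94.6% ± 1.45 of its cluster with miR-30b, miR-191 92.5% ± 0.586 of that with miR-425, and miR-181c 81.5% ± 1.03 of that with miR-181d. Of the miR-17 cluster, known for promoting proliferation, 4 of 6 hairpins were counted, the others being left out for copies elsewhere. Of the reads on the counted hairpins, miR-20a held 69.6% ± 0.388 and miR-17 29.1% ± 0.315. miR-18a had 5, 6 and 6 reads and miR-19a 4, 3 and 2 with both arms summed. The shares of miR-20a and miR-17 were the same in all libraries within less than 1 percentage point.

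The cluster of 37 hairpins from miR-379 to miR-410 on chromosome 12 (109709060 to 109743795) was low, at 406, 606 and 480 CPM in all. No read fell on 15 of its 37 hairpins. miR-411 held 39.2% ± 4.10 and miR-381 17.2% ± 1.80 of its reads. miR-144 and miR-451, chosen for naming after their values were seen, were near equal (evenness 0.992 ± 0.0133).

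**Figure D5:**
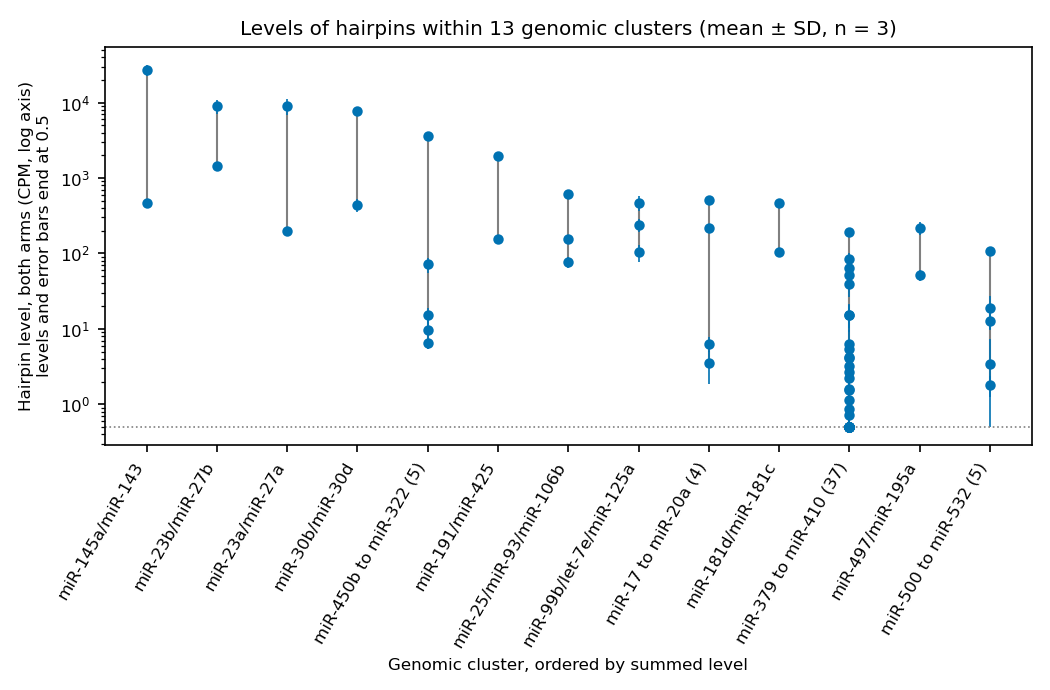
Mean level (CPM, log axis, both arms summed) of each hairpin in the 13 clusters with at least 300 reads, with SD bars over 3 WT libraries and values below 0.5 drawn at 0.5; hairpins with a copy elsewhere, miR-24 among them, are not drawn. The distance between points of a column shows unevenness, wide for miR-143 with miR-145 and narrow for miR-99b with let-7e and miR-125a.

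Between libraries, the coefficient of variation of the 93 entries with at least 100 CPM had a median of 14.3%, against a median of 4.28% from counting alone. The steadiest were miR-151-5p at 3234, 3283 and 3201 CPM (1.27%), miR-20a (1.96%), miR-34a (2.26%), miR-218 (2.57%) and miR-27b (3.28%). The most variable were miR-744 at 224, 466 and 125 CPM (64.7%), miR-1937b at 571, 1325 and 540 CPM (54.7%), miR-720 (37.6%), miR-486 (36.7%) and miR-24-1* (32.7%). Each of these 5 was highest in replicate 2, as were 64 of all 93 entries.

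miR-1937b and miR-720 were among the 39 entries whose sequence matched no annotated hairpin, which together held 0.132% ± 0.0609 of reads. The share of G and C bases, weighted by reads, was 34.8%, 35.5% and 34.1%, highest in replicate 2, and without miR-1 it was 42.7%, 42.8% and 42.5%. The share of each entry was also set against the log2 ratio between libraries across the 93 entries with at least 100 CPM. Pearson correlations were −0.158 for replicate 1 over 2, 0.136 for 1 over 3 and 0.213 for 2 over 3. The part of base composition in the differences between libraries was not tested.

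Shares of reads by sequence and gene class differed from the shares of entries, and they changed when miR-1 was left out. Entries of 22 nt held 85.0% ± 1.01 of reads and 58.0% of entries, and entries starting with T (U in the RNA) 78.2% ± 0.996 of reads and 39.4% of entries. Without miR-1 the share of 22 nt was 69.1% ± 0.445 and the share starting with T was 55.3% ± 1.62. Entries with copies at several loci, miR-1 among them, held 63.5% ± 2.37 of reads, so the locus of origin could not be given for most reads. They were 10.2% of entries, and without miR-1 they held 25.0% ± 1.18 of reads. Entries in introns of protein-coding genes at a single locus were 29.7% of entries and held 19.2% ± 0.551 of reads. Without miR-1 they held 39.4% ± 2.10.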

How the data were processed

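The authors deposited read counts per mature miRNA, whole numbers with no normalization, per the file headers, and a normalized value that equals CPM of listed miRNA reads within a relative gap of 4.4e-15. Multiplexed miRNA libraries were made from total RNA, per the labels' protocols. No aligner, annotation release or genome build was named, these being not given in the sources used here. Barcodes in headers and sample descriptions matched columns to samples.

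Shares, CPM, seed families (bases 2 to 8), Shannon effective numbers and Pielou evenness were computed from the counts in Python 3.11.15 with pandas 2.3.3. Members and lists were chosen with earlier results of these data known. Hairpins were matched by sequence in GENCODE M21 (GRCm38): 659 of 698 entries matched, 588 at 1 locus and 71 at several. Arms were tested in R 4.3.3 with edgeR 4.0.16 (glmQLFit and glmQLFTest, two-sided, library as a block, offset the log library total, at least 30 reads per pair, adjusted over 82 pairs). The block rests on both arms coming from the same library. Standard errors are the absolute log2 ratio over the square root of F. The common biological coefficient of variation was 11.91%. On 20 simulated sets of 82 pairs, 87.3% of 2-fold and 99.3% of 4-fold differences were recovered and 1.92% of calls were false. Simulated pairs had equal arms or a 2-fold or 4-fold difference, with a filter of at least 1 read. In the data the higher arm held a median of 99.4% of a pair, so these rates do not describe the test as applied.

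Named miRNAs were the 10 most abundant, members holding at least 5% of the 10 largest families, the 10 arm pairs with most reads, up to 8 with under 4-fold difference, called pairs with a higher asterisk arm, members of the cell-type lists by group, the 10 clusters with most reads and the 3 most and 3 least even, and the 5 most and 5 least variable entries. Others are named as members of a family, pair or cluster described. Alternatives were DESeq2 1.42.0, limma 3.58.1 on log2 ratios (pseudocount 0.5), TMM and size factors, other filters, seeds, gaps and totals, pairing by hairpin, clusters with the single-locus arms of hairpins otherwise left out (chosen after seeing the data), and leaving out each library. With 1 group, no test between groups was made. Counts and p-values describe these 3 libraries only. The p-values of edgeR's test did not follow the spread of each pair between libraries alone. The standard error was 0.173 for miR-126 and 0.174 for miR-24. The SD of the arm share in the same pairs was 5.20 and 0.982 percentage points. The size of an edgeR p-value is therefore not a measure of how closely the libraries agreed on that pair.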

Additional observations from a re-analysis of the deposited data

How the results depend on the processing

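With miR-1 left out of the total, the first miRNA held 17.4% and the first 10 held 60.6% of reads, and the effective number of miRNAs was 29.1. Without the miR-1 family the let-7 family held 18.3%, miR-208 17.4%, miR-378 8.48% and miR-29 7.87%. With bases 2 to 7 as the seed the miR-208 family held 9.77%, since miR-499 joins it. Entries with at least 1 read numbered 291.7 and with at least 100 reads 88.3, against 172 with at least 10. Median cluster evenness was 0.543 with gaps of 3 kb and 0.317 for clusters with at least 1 read. The median fold, 11.2 as reported, was 8.80 with 3 kb, 13.02 with 50 kb and 3.85 for clusters with at least 1 read. With single-locus arms of hairpins with copies elsewhere counted, a setting chosen after seeing the data that gave 24 clusters, median evenness was 0.434 and the median fold 19.6. Hairpins added this way entered by that arm alone, with 0 reads for miR-29b*, let-7f* and miR-16* and 14 for let-7c-1*. Their abundant arms, such as miR-29b and let-7f, stayed out. These medians therefore do not describe whole hairpins. Of pairs with at least 300 reads, 49 of 49 were called, fewer pairs being tested. DESeq2 called 76 of 82, pairing by hairpin 82 of 83, and the filter of at least 1 read 89 of 126 (70.6%). Leaving out each library gave 78 to 79. Without the replicate block, which pairs the arms by library, 80 pairs were called, 74 and 6 by direction, and miR-671 lost its call. Of 159 values of the 18 named pairs, 151 kept direction and call, 8 lost the call (miR-126, miR-140, miR-30c and miR-671) and 0 reversed. Leaving out libraries gave 49.3% to 53.2% for miR-1, 78.0% to 80.6% for the first 10, and 7.65% to 9.70% for let-7.

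For a miRNA with 0 reads the depth allowed a level of up to 3.92 CPM. The 3 libraries form 1 group, which allows no test between groups. The division of reads between near-identical sequences was not tested.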
